A study of Homo sapiens with 18 samples.

Results

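The 31 genes described here encode the proteins of the cytosolic small ribosomal subunit, RPS2 to RPS29 and RPSA without pseudogenes. They were taken by their Ensembl IDs, with no threshold on a measured value but with earlier results of these data known, from 60666 IDs in the deposited table of IP enrichment for ADAR3 WT over control. The study expressed proteins in U373-MG, an established human glioblastoma cell line, by retroviral transduction and then sequenced RNA recovered by RNA immunoprecipitation (RIP-seq). Control cells carried the empty vector with its antibiotic resistance, ADAR3 WT cells expressed FLAG-tagged wild-type ADAR3, and R-Mutant cells expressed FLAG-tagged ADAR3 with a mutated R-domain. All cells were grown in medium with 0.2 mg/ml G418 and were exposed to UV at 150 mJ/cm2 to fix RNA to protein. Input RNA and IP RNA were sequenced for each of the 3 genotypes, with 3 numbered replicates in each of the 6 groups. The labels do not say whether replicates were separate cultures, nor whether a line was 1 clone or a pool, so every error below covers only the spread between these libraries.

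ADAR3 belongs to the ADAR proteins, which bind double-stranded RNA. It is found mainly in brain and, unlike its relatives, is not known to edit RNA. The R-domain is a short stretch rich in arginine that contacts single-stranded RNA. Small-subunit proteins assemble on ribosomal RNA in the nucleolus and form the particle that selects the start codon and reads the messenger RNA. Their mRNAs are among the most abundant and most heavily translated in growing cells. Most carry a 5′ terminal oligopyrimidine (TOP) tract, a C at the first base followed by pyrimidines, through which mTOR signalling and the protein LARP1 control their translation as a group. RPS6 is the subunit protein phosphorylated by S6 kinase, RPS3 lies at the mRNA entry channel, RPS27A is made as a fusion to ubiquitin, and RPS19 is the gene most often mutated in Diamond-Blackfan anaemia.

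The start-site sequences are shown because the TOP tract, for which this group of mRNAs is known, lies at the start. All 31 symbols were found in the RefSeq gene table (GRCh38.p14), where they lie on 17 chromosomes with at most 7 on any of them. The RefSeq start windows held 24 of the 31 symbols, at 27 annotated starts. A TOP-like start was counted where the first transcribed base is C and the next 4 are all pyrimidines. It was found at 18 of the 27 starts (66.7%), 1 in each of 18 genes, against 4.07% of all 35116 start windows in the table. Below are the 6 genes with the longest pyrimidine run from the start, read 5′ to 3′ from 10 bases before the start to 20 bases from it, with that run in capitals.
RPS24, chr10:78033853-78033882, plus strand: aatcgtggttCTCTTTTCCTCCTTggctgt
RPS21, chr20:62387093-62387122, plus strand: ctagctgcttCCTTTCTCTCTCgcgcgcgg
RPS3, chr11:75399508-75399537, plus strand: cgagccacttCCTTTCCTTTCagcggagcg
RPS19, chr19:41860245-41860274, plus strand: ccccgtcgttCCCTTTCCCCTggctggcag
RPS12, chr6:132814559-132814588, plus strand: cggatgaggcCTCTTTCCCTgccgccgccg
RPS14, chr5:150449720-150449749, minus strand: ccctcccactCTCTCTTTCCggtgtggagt

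The run was 14 bases long in RPS24 and had a median of 8.5 bases over the 18 TOP-like starts, the shortest being 6. No TOP-like start was annotated for 6 of the 24 genes, which are RPS4X, RPS7, RPS15, RPS26, RPS28 and RPS29. For 3 of these the window is shown the same way, with any pyrimidine run from the start in capitals.
RPS7, chr2:3575250-3575279, plus strand: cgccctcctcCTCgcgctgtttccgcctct
RPS26, chr12:56041908-56041937, plus strand: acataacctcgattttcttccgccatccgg
RPS28, chr19:8321486-8321515, plus strand: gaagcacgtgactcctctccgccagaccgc

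RefSeq gives 1 annotated base for a start that can vary in cells, so these letters describe the annotation and not the RNAs sequenced here. Over the 300-base windows, CCGGAAG was present on either strand at 9 of the 27 starts of these genes (33.3%) and at 10.3% of all starts. TATAAA was present at 2 (7.41%) against 11.5% of all starts, CTTTCC at 12 (44.4%) against 26.3%, and CTTTTC at 11 (40.7%) against 21.0%. The deposited tables list genes by Ensembl ID, and neither they nor the RefSeq table used here pair single IDs with symbols. Values are therefore given by ID, and sequences were not related to values.

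IP enrichment is read here as how much more of an RNA was in the IP than in the input of a genotype, and its fold change as that quantity in the first genotype over that in the second, in log2. Of the 31 IDs, 29 were tested in each of the 4 comparisons. ENSG00000124614 was listed with a mean of 0 in the 3 IP tables, and no row of the input table holds it. ENSG00000182774 had a mean normalized count of 0.0692 in the authors' deposited table of ADAR3 WT over control and 0.161 in that of the input, which is too low for a test. Whether reads of these genes were lost in counting, for example to overlapping or near-identical annotated genes, was not tested, so the values do not show that their RNA was absent. For the 29 others the mean normalized count ran from 932 to 13363 in ADAR3 WT over control, with a median of 5590, and 28 of them lay in the fifth of tested genes with the highest means. How reads shared with the many near-identical pseudogenes of these genes were counted is not given in the sources used here. Total counts per library are not known, and per-library values that can be tied to the labels were not used here, so every error given is the deposited standard error. Gene identities being unpaired, neither the ADAR3 transcript nor glioma markers were checked. The largest rise in input was that of ENSG00000185736, which had a log2 value of 10.09 ± 0.34 (standard error) in the authors' deposited table.

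Small-subunit ribosomal protein RNAs had lower IP enrichment with ADAR3 WT than with the empty vector, almost without exception. The fold change was below 0 for all 29 tested genes, and 28 passed the test as lower and 0 as higher (two-sided normal test of the deposited fold change over its standard error, Benjamini-Hochberg adjusted p under 0.05 over 21121 genes). Of all tested genes, 8.14% passed as lower. The median log2 fold change of the 29 genes was -1.50, which is 2.83-fold lower, and the median of all tested genes was 0.0117. Counts were scaled between libraries, so a lower value is relative to the other RNAs in the same precipitate. The control IP came from empty-vector cells without FLAG-tagged ADAR3, so its enrichment describes RNA recovered without that protein. Whether ADAR3 bound these RNAs was not tested. At least a 2-fold reduction was reached by 26 genes and a 4-fold reduction by 3. By fold change alone, the least reduced of the 26, ENSG00000145425, lay at the 9.84 percentile of all tested genes. The least reduced of the 3, ENSG00000143947, lay at the 2.10 percentile. With the ratio of fold change to standard error rescaled to its robust spread over all tested genes, 18 of the 29 still passed as lower. The share of all tested genes passing after this rescaling is not given here. The 8.14% above belongs to the test without it.

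The lowest value in the authors' deposited table of ADAR3 WT over control was that of ENSG00000171858, at -2.15 ± 0.27 (standard error), or 4.45-fold lower (normal test adjusted p 9.08e-13). ENSG00000233927 followed at -2.02 ± 0.27 (adjusted p 6.51e-12) and ENSG00000143947 at -2.02 ± 0.22 (adjusted p 9.17e-18) in the same deposited table. These 3 are the genes past 4-fold. Next in the authors' deposited table came ENSG00000112306 at -1.98 ± 0.22 (adjusted p 2.02e-16), ENSG00000115268 at -1.93 ± 0.24 (adjusted p 7.36e-14) and ENSG00000171863 at -1.92 ± 0.20 (adjusted p 2.11e-18). The last of these had the smallest p of all 29. A further 3 genes lay close behind in the deposited table, ENSG00000186468 at -1.84 ± 0.20, ENSG00000008988 at -1.82 ± 0.22 and ENSG00000164587 at -1.79 ± 0.23. Each of these 9 genes lay past 2-fold over its whole 95% interval. This also held for some of the less reduced genes, such as ENSG00000198034, with an upper bound of -1.15.

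The middle of the group was dense. Between -1.70 and -1.48 in the authors' deposited table of ADAR3 WT over control lay 9 genes: ENSG00000197728 at -1.70 ± 0.29, ENSG00000198034 at -1.57 ± 0.21, ENSG00000213741 at -1.56 ± 0.27, ENSG00000140988 at -1.52 ± 0.31, ENSG00000142534 at -1.52 ± 0.34, ENSG00000142937 at -1.50 ± 0.19, ENSG00000118181 at -1.50 ± 0.32, ENSG00000231500 at -1.48 ± 0.22 and ENSG00000110700 at -1.48 ± 0.23. ENSG00000142937 also had the highest mean normalized count of the group in that table (13363), and ENSG00000197728 the lowest (932). Across the 29 genes the fold change had a Spearman correlation of 0.25 with the mean count, a weak relation over genes that share all their libraries.

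A smaller reduction was seen in the remaining 11 genes. In the authors' deposited table of ADAR3 WT over control, ENSG00000105193 stood at -1.25 ± 0.27, ENSG00000083845 at -1.23 ± 0.21, ENSG00000137154 at -1.20 ± 0.23 and ENSG00000149273 at -1.18 ± 0.18. ENSG00000177954 at -1.17 ± 0.35, ENSG00000134419 at -1.12 ± 0.22, ENSG00000168028 at -1.04 ± 0.19 and ENSG00000145425 at -1.02 ± 0.26 in the same deposited table completed the genes lowered at least 2-fold. All 8 passed the test. The remaining 3 were reduced by less than 2-fold in the authors' deposited table, ENSG00000138326 at -0.90 ± 0.32 (normal test adjusted p 0.0343), ENSG00000105372 at -0.78 ± 0.23 (adjusted p 0.0104) and ENSG00000170889 at -0.67 ± 0.27 (adjusted p 0.0713). ENSG00000170889 was the 1 gene that did not pass, with a 95% interval from -1.19 to -0.15.

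**Figure D1:**
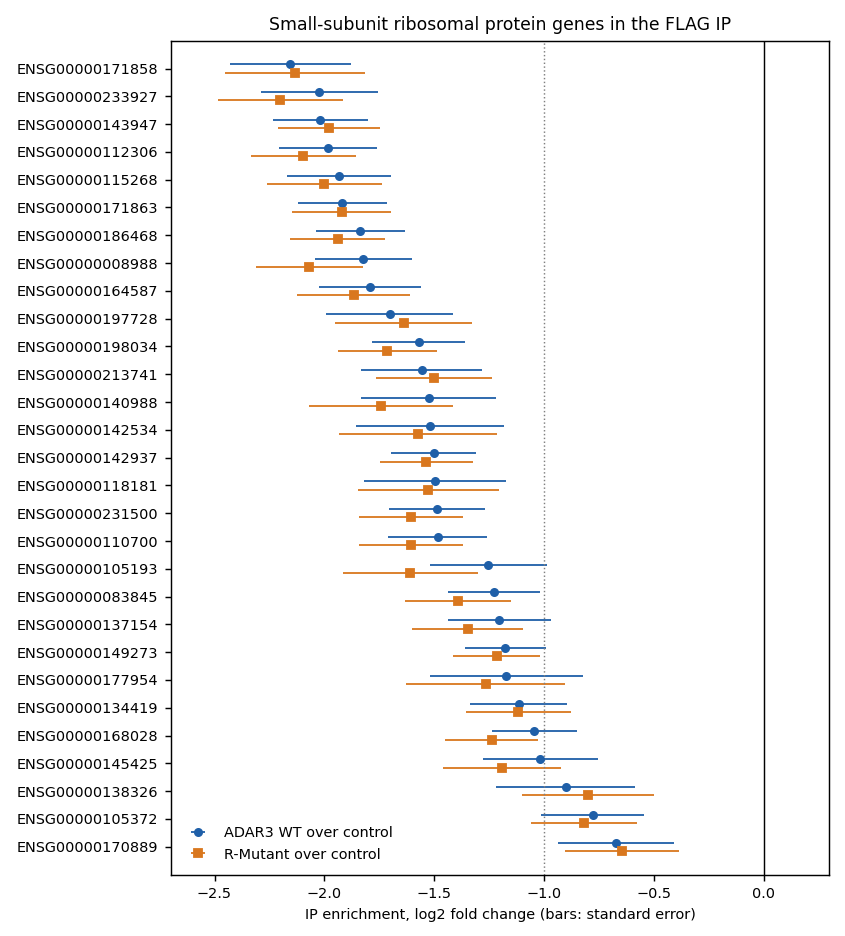
IP enrichment of the 29 tested small-subunit ribosomal protein genes, as the log2 fold change of ADAR3 WT over control (blue circles) and of R-Mutant over control (orange squares) with standard error bars, in order of the first. All points lie left of 0, and most lie left of the dotted line at a 2-fold reduction.

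Neighbours in this order could seldom be separated. The gap between adjacent genes exceeded the smaller of their 2 standard errors in 1 of 28 pairs, between ENSG00000110700 and ENSG00000105193, where it was 0.231. The ends of the order did differ by more than their errors. The 95% intervals of 9 genes lay wholly below that of ENSG00000170889, and those of 7 lay wholly above that of ENSG00000171858. The errors come from the same libraries and are not independent between genes, and differences between genes were not tested. The standard deviation of the fold change was 0.401 among the 29 genes and 0.591 among the 6768 tested genes with a mean of at least 932.

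Tested genes with a mean at or above the lowest of the group shifted far less at the median. This set shares only that lower bound with the group and was not matched to it in abundance. Among those 6768 genes the median log2 fold change of ADAR3 WT over control was -0.07, and 15.5% passed as lower. In the same set, 484 genes passed with at least a 2-fold reduction, and 26 of them (5.37%) were small-subunit ribosomal protein genes. Against all tested genes, 18 of the 29 lay below the 5th percentile of the fold change and 26 below the 10th, and ENSG00000170889 lay at the 18.1 percentile.

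**Figure D2:**
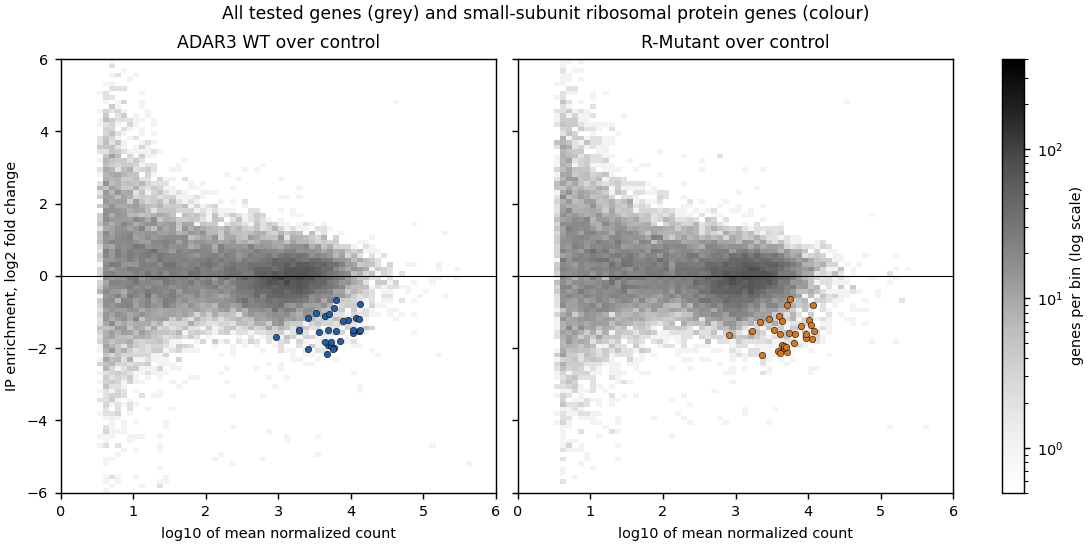
Log2 fold change of IP enrichment (vertical) against the log10 mean normalized count (horizontal), for ADAR3 WT over control (left, 21121 tested genes) and R-Mutant over control (right, 21120 tested genes). Grey shade gives the genes per bin on a log scale, 6 and 17 genes lie outside the frames, and coloured points are the 29 small-subunit ribosomal protein genes, all below 0 at the right of each cloud.

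The R-Mutant gave a closely similar picture against the same control libraries. All 29 fold changes of R-Mutant over control were below 0, with 27 genes passing as lower and 0 as higher (same normal test, Benjamini-Hochberg adjusted p under 0.05 over 21120 genes), where 7.95% of all tested genes passed as lower. The median of the 29 genes was -1.60, or 3.04-fold lower, beside a median of 0.0283 over all tested genes. A 2-fold reduction was reached by 26 genes and a 4-fold reduction by 4. By fold change alone, the least reduced of the 26, ENSG00000134419, lay at the 9.07 percentile of all tested genes. The least reduced of the 4, ENSG00000008988, lay at the 2.03 percentile. The same rescaling left 18 genes passing as lower. The share of all tested genes after it is again not given here, and the 7.95% belongs to the test without it. Since both comparisons use the same control libraries, the 27 genes called in both are not independent evidence.

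In R-Mutant over control the authors' deposited table placed ENSG00000233927 lowest, at -2.20 ± 0.28 (standard error; normal test adjusted p 2.98e-12), beside -2.02 in ADAR3 WT over control. ENSG00000171858 followed at -2.13 ± 0.32 (adjusted p 3.55e-09) and ENSG00000112306 at -2.09 ± 0.24 (adjusted p 9.94e-16) in the deposited table. ENSG00000008988 was next at -2.07 ± 0.24 (adjusted p 7.97e-15), against -1.82 with ADAR3 WT, both from the authors' deposited tables. These 4 genes were past 4-fold. ENSG00000115268 at -2.00 ± 0.26 (adjusted p 4.50e-12) and ENSG00000143947 at -1.98 ± 0.23 (adjusted p 1.06e-14) in the authors' deposited table were just short of it. Of the 6 lowest genes in each comparison, 5 were shared.

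The least reduced genes of R-Mutant over control in the authors' deposited table were ENSG00000170889 at -0.64 ± 0.26 (normal test adjusted p 0.0806) and ENSG00000138326 at -0.80 ± 0.30 (adjusted p 0.0581). Neither passed. ENSG00000105372 at -0.82 ± 0.24 (adjusted p 0.00863) and ENSG00000134419 at -1.12 ± 0.24 (adjusted p 0.000117) in the same deposited table did. The largest step between neighbours, 0.300, lay between these last genes. The same 3 genes, ENSG00000170889, ENSG00000138326 and ENSG00000105372, were thus the least reduced with either protein. Among the 6894 genes whose mean was no lower than 825, the smallest in the group for R-Mutant over control, the median was -0.07 and 15.2% passed as lower.

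The direct comparison asks whether mutation of the R-domain altered the enrichment of these RNAs. Of the 29 genes, 0 passed by the normal test in the direct comparison (with 0.00428% of 23385 tested genes called in either direction), and 0 had an unadjusted p under 0.05, against 0.624% of all tested genes. The fold changes ran from -0.37 to 0.09 with a median of -0.09, and the median of all tested genes was -0.02. The value was below 0 for 23 of the 29 genes and for 53.9% of all tested genes. The 95% interval of every gene included 0. It lay within a 2-fold difference in both directions for 26 genes and within 1.5-fold for 15, so differences beyond these sizes lie outside the intervals of those genes.

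ENSG00000105193 had the lowest value in the authors' deposited table of R-Mutant over ADAR3 WT, -0.37 ± 0.31, with a 95% interval from -0.97 to 0.23. Next in that deposited table were ENSG00000008988 at -0.26 ± 0.24, ENSG00000140988 at -0.23 ± 0.30 and ENSG00000168028 at -0.21 ± 0.16. ENSG00000233927 and ENSG00000145425 both stood at -0.19 in the authors' deposited table, with standard errors of 0.23 and 0.16. The highest values in the deposited table were those of ENSG00000138326 at 0.09 ± 0.31, ENSG00000197728 at 0.05 ± 0.31, ENSG00000213741 at 0.04 ± 0.26 and ENSG00000143947 at 0.03 ± 0.21. No value in this comparison exceeded 1.5 of its own standard errors. The 3 genes whose intervals reached past 2-fold were ENSG00000177954, ENSG00000142534 and ENSG00000118181, with standard errors of 0.66, 0.61 and 0.58 in the authors' deposited table. For these a 2-fold difference in either direction lay inside the 95% interval. Whether a true 2-fold difference would have passed the adjusted test was not tested for any gene of the group.

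The authors' likelihood ratio test gave another count for the same comparison. By its adjusted p in the authors' deposited table, all 29 genes passed in R-Mutant over ADAR3 WT, as did 51.1% of all tested genes. The deposited statistic of the 29 genes had a median of 441 against 16.6 over all tested genes. It was as high as 1126 for ENSG00000142937, whose fold change in the same deposited table was -0.05 ± 0.16. The deposited p-values are those of a chi-square with 7 degrees of freedom, so the statistic covers more terms of the authors' model than the fold change beside it. Against control, all 29 genes also passed that test in both deposited tables, where 43.0% of all tested genes did so in either direction for ADAR3 WT and 40.8% for the R-Mutant.

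In input RNA, the level of these mRNAs was not detectably altered by ADAR3 WT. In ADAR3 WT over control, 0 of the 29 genes passed (normal test, with 0.289% of 20411 tested genes called in either direction), and 0 had an unadjusted p under 0.05, against 2.92% of all tested genes. All 29 fold changes were above 0, from 0.04 to 0.32 with a median of 0.14, while 56.6% of all tested genes lay above 0 with a median of 0.03. Every 95% interval included 0 and stayed within 2-fold. In bulk RNA, fewer cells of a kind and less RNA per cell cannot be told apart.

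ENSG00000115268 had the highest input value in the authors' deposited table, 0.32 ± 0.34, followed by ENSG00000105372 at 0.22 ± 0.28, ENSG00000110700 at 0.22 ± 0.20 and ENSG00000137154 at 0.21 ± 0.27. The lowest in that deposited table were ENSG00000142534 at 0.04 ± 0.41, ENSG00000197728 at 0.06 ± 0.31, ENSG00000105193 at 0.07 ± 0.35 and ENSG00000112306 at 0.08 ± 0.22. The remaining 2 of the 6 lowest were ENSG00000171858 at 0.08 ± 0.35 and ENSG00000008988 at 0.08 ± 0.28 in the authors' deposited table. These values are small beside the reduction in the IP. Since input stands in the denominator of IP enrichment, the input fold change was added back gene by gene, which leaves the change in the IP libraries alone under that reading. The sum ran from -2.07 to -0.55 with a median of -1.34, and all 29 genes stayed below 0. With input values this small that sign was fixed in advance. The sum joins separately normalized tables and has no error of its own.

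**Figure D3:**
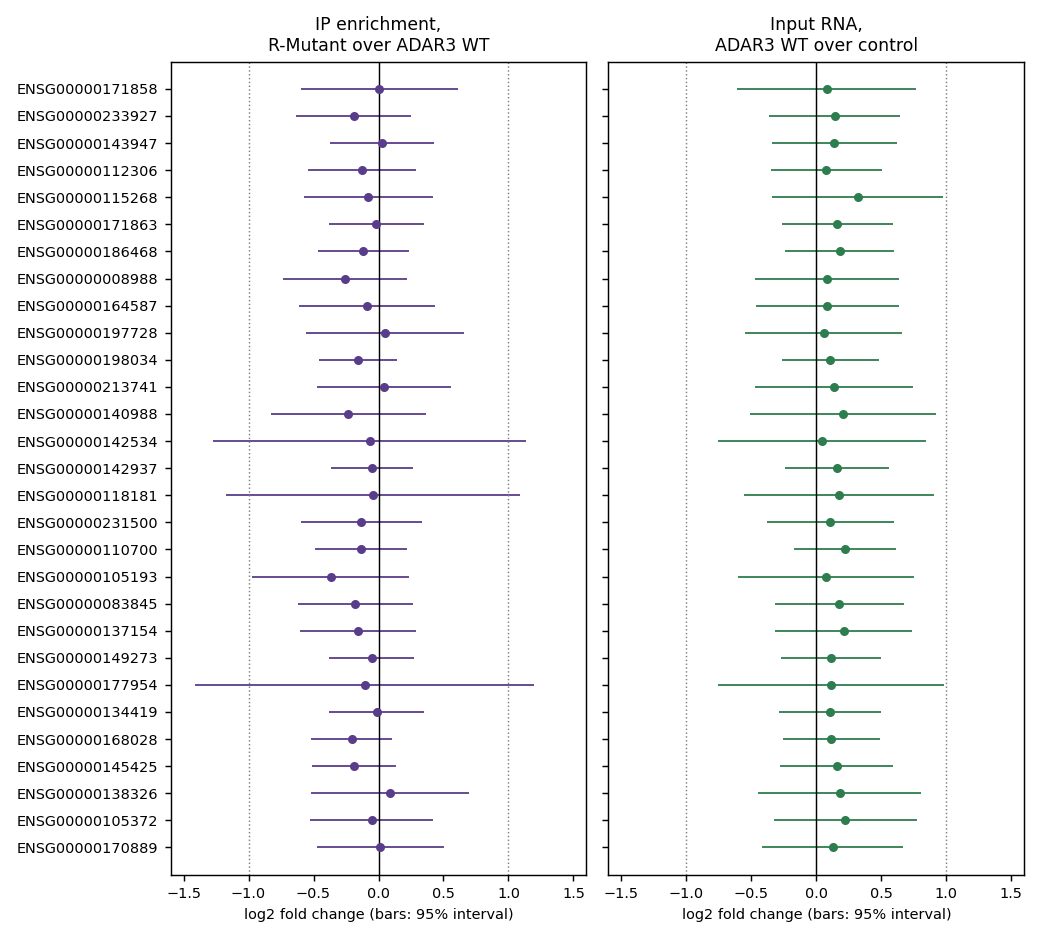
Log2 fold change of the 29 tested genes with 95% intervals for IP enrichment of R-Mutant over ADAR3 WT (left) and for input RNA of ADAR3 WT over control (right), in the gene order of the ADAR3 WT over control comparison. Every interval crosses 0, the dotted lines mark 2-fold in either direction, and 3 intervals on the left reach past them.

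The mean normalized counts of these RNAs in the IP tables were low relative to the input table, by position among all genes. The mean in the IP table was divided by the mean of the same gene in the input table. The tables were normalized separately and the libraries behind each mean are not stated, so only the position among all genes is described. If IP tables were fitted on IP and input libraries, as the reading of IP over input would need, their means include input. The ratio is therefore not taken as a level in the IP, nor as evidence separate from the fold changes. For ADAR3 WT over control the ratio of the deposited means was 0.591 at the median of the 29 genes (range 0.536 to 0.738), and 0.874 at the median of 20129 genes. For R-Mutant over control it was 0.525 against 0.821, and for R-Mutant over ADAR3 WT, which has no control in its name, 0.544 against 0.927. All 29 genes lay below the all-gene median in each of the 3 tables, the middle one at the 2.2 percentile in each. Restricting ADAR3 WT over control to genes with a mean of at least 932 gave an all-gene median of 0.834. In the authors' deposited tables ENSG00000145425 had the lowest ratio for ADAR3 WT over control, 0.536, and ENSG00000213741 the highest, 0.738.

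**Figure D4:**
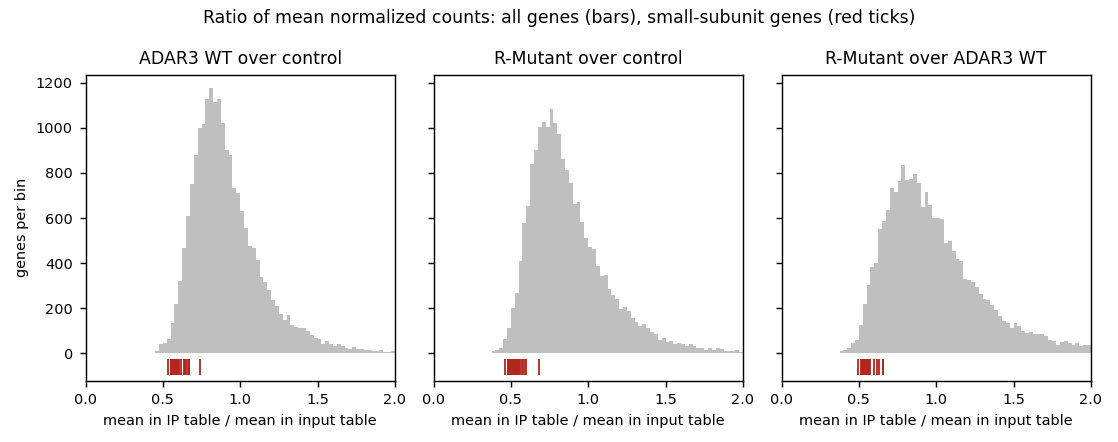
Mean normalized count in each IP table divided by that in the input table, for all genes (grey bars, genes per bin) and the 29 small-subunit ribosomal protein genes (red ticks below the axis). All ticks lie below the median of all genes in each panel, and 121, 133 and 482 genes with a ratio above 2 are not drawn.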

How the data were processed

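Per the submitters' processing notes, reads were processed with STAR 2.7.7a, featureCounts and DESeq2 on GRCh38. For the annotation, strand setting, multi-mapping reads and model formula, the step is not given in the sources used here. Per the labels' protocols, libraries kept strand, followed removal of ribosomal RNA and had 15 PCR cycles. The analysis used 4 comparison tables deposited by the authors. Per the file headers, each holds a mean signal (mean of normalized counts), a log2 fold change, its standard error on the log2 scale, a test statistic (a score), a p-value and an adjusted p-value. A further 6 columns of single input libraries could not be matched to a label by name and were left out.

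No label states that IP fold changes compare IP over input. That reading was taken from how they vary with input among genes with an input mean under 10, where the slope on the input fold change was -0.79 for ADAR3 WT over control and 0.48 for R-Mutant over ADAR3 WT. The reading was applied to R-Mutant over control as well, for which no slope is given here.

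Each deposited log2 fold change was divided by its standard error and tested with a two-sided normal test. Benjamini-Hochberg adjustment ran over all genes with a deposited adjusted p, called at 0.05. The calling code was run on simulated fold changes drawn with the deposited standard errors as their spread. That run checks the code and cannot show whether those errors hold for the real data. Intervals are 95% normal intervals. Genes printed in full were the 4 highest and 4 lowest in each comparison, the 6 furthest from 0 where over 12 were called, and those with the highest and lowest mean, the remaining values of ADAR3 WT over control being added for completeness. Sequences could not be chosen by fold change and were chosen by pyrimidine run. Alternatives changed the threshold, the genes adjusted over, the minimum mean, the centring and the spread, or used the authors' adjusted p. The members and lists were chosen with earlier results of these data known. Lists of large-subunit, assembly and marker genes by symbol were not used, since no table here links the IDs to symbols. Start-site sequences are from RefSeq. Software was matplotlib 3.10.9, pandas 2.3.3, scipy 1.17.1 and numpy 2.4.6 under Python 3.11.15.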

Additional observations from a re-analysis of the deposited data

How the results depend on the processing

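No paired analysis was possible because the IP tables hold only fitted comparisons and the 6 columns of single input libraries could not be tied to labels by name. For the same reason the planned count models and the omission of single replicates were not run. In ADAR3 WT over control, where 28 genes were called lower, dividing fold over standard error by its robust spread left 18. The other settings gave 26 to 29, and in R-Mutant over control all settings gave 18 to 29. Shares of all tested genes are given here only for the main test and the authors' adjusted p. In R-Mutant over ADAR3 WT the authors' adjusted p called 29 of the 29 genes, and every other setting called 0. In input, 0 were called under all settings. ENSG00000170889 passed in ADAR3 WT over control by the authors' adjusted p, and, by the normal test, only with genes under a mean of 50 left out (adjusted p 0.0495). ENSG00000138326 lost its call there when all genes with a fold change entered the adjustment (adjusted p 0.0602). Centring on all tested genes or on the fifth with the highest mean moved the medians by less than the median standard error, to -1.51 and -1.46 for ADAR3 WT over control. No fold change of a named gene that was called under any setting reversed.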
